A study of Mus musculus with 8 samples.

Results

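The 10 genes described here encode signals by which islet cells can call and hold leukocytes, and the feedback arms of the transcription factor family that drives them. They are the adhesion molecules Icam1 and Vcam1, the chemokines Ccl2, Cxcl1, Cxcl10 and Cxcl16, the cytokine Il6, and the NF-kB regulators Nfkbia, Tnfaip3 and Nfkb2. They were chosen by symbol for this role, with earlier results of these data known. Each symbol matched 1 of the 55414 Ensembl mouse gene identifiers counted. RNA was sequenced from pancreatic islets of C57BL/6 mice 5 weeks old, in 8 libraries. The 4 TG-labelled libraries came from mice of genotype Ins2 cre(+/-) ATF4 TG(+/-), in which Cre recombinase follows the insulin 2 gene, a gene of beta cells. The 4 WT-labelled libraries came from mice of genotype Ins2 cre(-/-) ATF4 TG(+/-), so mice of both groups carried the ATF4 transgene and differed in Cre. No library carried Cre without the transgene, so effects of Cre and of the ATF4 transgene cannot be told apart. Separate animals are not stated for the libraries of a group, so p-values measure the spread between libraries, which may be technical.

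NF-kB dimers rest in the cytoplasm, held by inhibitor proteins such as the product of Nfkbia. Cytokines such as tumour necrosis factor and interleukin 1, or ligands of Toll-like receptors, activate a kinase complex that marks the inhibitor for breakdown, and the freed dimers turn on genes of adhesion molecules, chemokines and Il6. The same dimers turn on Nfkbia and Tnfaip3, which switch the signal off, and Nfkb2, which feeds the slower non-canonical branch. In an islet these genes can be used by beta cells, endothelial cells, fibroblasts and macrophages, and a bulk library does not say which of them made the RNA.

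Sequences before the start sites are shown because the members are read together as NF-kB targets. They let some of the called genes be set beside those not called. RefSeq windows of 300 bases (250 before the start and 50 after it) were found for 7 of the 10 members. The windows are of build GRCm38.p6, an earlier build than the mm39 of the counts. Vcam1 and Cxcl16, both called below, and Ccl2 had no window. The 7 genes had 10 windows, since Nfkb2 and Tnfaip3 have more than 1 start. Members are counted below by gene and the background by window, so these are unlike units. The kappa-B decamer consensus, searched on both strands, lay in windows of 6 of these 7 genes and in 8.46% of all 32851 windows. The exact 9 letters GGAAATTCC, a form known from the human ICAM1 gene that can overlap the decamer, lay in windows of 5 of the 7 genes and in 0.317% of all windows. TGATGNAA, the core of the element that ATF4 binds with C/EBP partners, lay in a window of 1 of the 7 genes, a second start of Tnfaip3, and in 3.97% of all windows. These matches describe the letters and are not measured binding. The members were chosen by role, and the 9 letters are known from human ICAM1. The numbers of genes with matches thus do not test for an excess. The 250 bases before the first listed start of 5 members follow, 5′ to 3′ on the strand of the gene, with matches to the decamer or to GGAAATTCC in capitals. Icam1 lies at chr9:21015690-21015939, plus strand, Cxcl1 at chr5:90890995-90891244, plus strand, Nfkb2 at chr19:46304487-46304736, plus strand, Nfkbia at chr12:55492648-55492897, minus strand, and Tnfaip3 at chr10:19015411-19015660, minus strand.
Icam1: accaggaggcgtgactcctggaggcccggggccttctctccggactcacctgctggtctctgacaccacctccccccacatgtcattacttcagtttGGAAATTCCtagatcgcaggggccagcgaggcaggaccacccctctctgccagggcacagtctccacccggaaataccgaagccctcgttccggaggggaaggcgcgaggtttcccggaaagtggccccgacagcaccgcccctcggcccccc
Cxcl1: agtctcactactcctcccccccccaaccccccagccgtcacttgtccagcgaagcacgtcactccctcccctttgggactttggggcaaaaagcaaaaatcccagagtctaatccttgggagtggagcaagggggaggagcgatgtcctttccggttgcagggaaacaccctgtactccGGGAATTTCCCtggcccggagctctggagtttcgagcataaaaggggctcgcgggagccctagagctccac
Nfkb2: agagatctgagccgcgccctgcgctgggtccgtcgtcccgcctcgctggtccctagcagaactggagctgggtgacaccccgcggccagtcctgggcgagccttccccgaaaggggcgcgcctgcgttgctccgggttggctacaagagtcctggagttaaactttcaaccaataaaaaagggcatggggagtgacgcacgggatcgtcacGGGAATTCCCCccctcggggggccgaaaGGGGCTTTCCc
Nfkbia: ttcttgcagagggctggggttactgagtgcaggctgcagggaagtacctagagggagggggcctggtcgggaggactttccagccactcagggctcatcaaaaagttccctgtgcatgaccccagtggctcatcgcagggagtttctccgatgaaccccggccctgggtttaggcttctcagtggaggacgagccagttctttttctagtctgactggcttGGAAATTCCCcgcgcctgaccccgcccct
Tnfaip3: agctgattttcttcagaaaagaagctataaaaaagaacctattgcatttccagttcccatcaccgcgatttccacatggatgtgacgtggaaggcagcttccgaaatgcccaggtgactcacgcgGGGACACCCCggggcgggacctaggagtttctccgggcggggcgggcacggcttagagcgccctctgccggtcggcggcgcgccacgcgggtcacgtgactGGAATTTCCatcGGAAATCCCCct
The match of Icam1 lay 153 to 145 bases before the start, without a decamer in this window. In Cxcl1 the capitals lay 71 to 61 bases before the start, and in Nfkbia 29 to 20 bases before it. Genes on both sides of the test below hold such letters.

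Both adhesion molecules were called higher in TG-labelled libraries, and no TG-labelled library fell within the WT-labelled range for either. Icam1, the ligand of beta-2 integrins on leukocytes, was at 12.3, 7.79, 11.9 and 9.38 CPM (counts scaled to a common library size) in TG-labelled replicates 1 to 4, against 1.98, 1.56, 4.11 and 2.19 CPM in WT-labelled replicates 1 to 4. The lowest TG-labelled value, in replicate 2, was above the highest WT-labelled value, in replicate 3. The means were 10.4 ± 2.15 CPM in TG-labelled and 2.46 ± 1.13 CPM in WT-labelled libraries (SD, n = 4 each), and Icam1 rose by 2.07 on the log2 scale (SE 0.28, adjusted p = 0.000132, quasi-likelihood test of edgeR). Vcam1, the ligand of integrin alpha-4 beta-1, was at 18.5, 13.1, 15.6 and 17.2 CPM in TG-labelled libraries, against 6.46, 4.32, 6.78 and 3.77 CPM in WT-labelled libraries. It rose by 1.59 on the log2 scale (SE 0.20, adjusted p = 7.1e-05), a 3.01-fold change with a 95% interval of 2.23 to 4.05. Both genes stayed called without any single library, with log2 fold changes between 1.89 and 2.44 for Icam1 and between 1.45 and 1.72 for Vcam1. More cells of a type and more RNA per cell cannot be told apart in such bulk samples. The cell markers that moved with these genes are given further on.

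Among all 20509 genes tested, 20.1% were called at an adjusted p under 0.05, with 12.1% higher and 8.06% lower in TG-labelled libraries. Of the 10 members, 8 passed the filter on low counts and were tested, and 5 of these were called, all higher in TG-labelled libraries (Icam1, Vcam1, Cxcl1, Cxcl16 and Nfkb2). The same 5 were those with an unadjusted p under 0.05, DESeq2 called 5 as well, and limma-voom called 4. The median log2 fold change of the 8 was 0.95, beside −0.0019 over all tested genes. The groups did not overlap for 3 of the 8 (Icam1, Vcam1 and Nfkb2), where this held for 22.6% of all tested genes, with 12.6% not overlapping and higher in TG-labelled libraries. At least 2-fold higher and called were 3 members (Icam1, Vcam1 and Cxcl1) and 6.41% of all tested genes. Since the 8 passed a filter that a gene high in a single group can pass, these counts do not describe all 10 genes. The members were also chosen with earlier results of these data known, so the counts do not test for an excess.

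**Figure D1:**
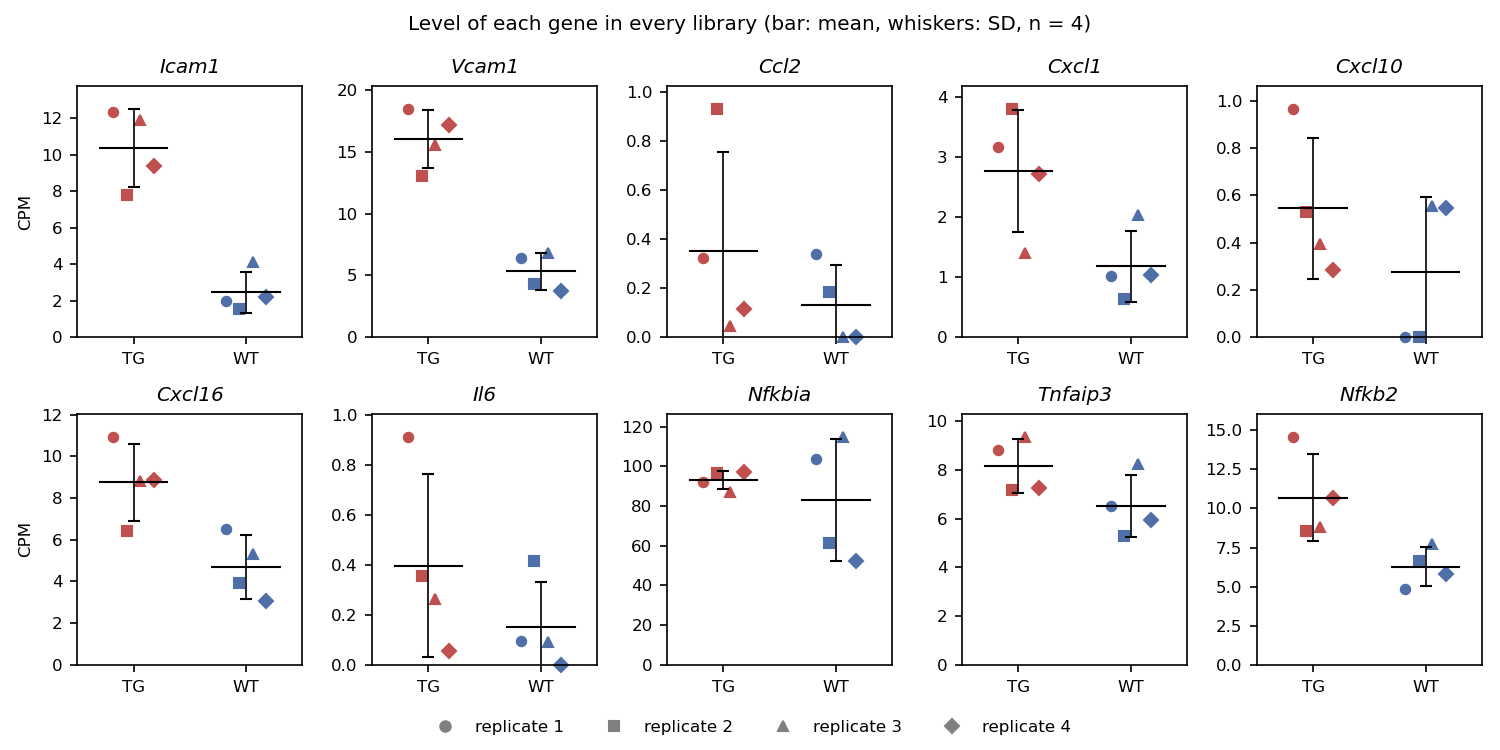
CPM (vertical axes, linear and starting at 0) of each of the 10 genes in TG (left) and WT (right) libraries, with a symbol per replicate number, a line at the mean and whiskers for the SD (n = 4), cut at 0. Icam1, Vcam1 and Nfkb2 show no overlap between the groups, whereas Nfkbia lies between 87.3 and 97.1 CPM in TG and spreads from 52.4 to 115 CPM in WT.

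Of the 4 chemokines, Cxcl16 and Cxcl1 were called, and Cxcl10 and Ccl2 had few reads. Cxcl16, a membrane-bound chemokine that draws CXCR6-bearing lymphocytes once cut from the surface, was at 10.9, 6.42, 8.79 and 8.86 CPM in TG-labelled libraries, against 6.51, 3.90, 5.31 and 3.04 CPM in WT-labelled libraries. TG-labelled replicate 2 lay just under WT-labelled replicate 1, and the other TG-labelled libraries lay above all WT-labelled ones. Its log2 fold change was 0.89 (SE 0.24, adjusted p = 0.0173). The call was lost without TG replicate 1 (0.78, adjusted p = 0.0569), without TG replicate 3 (0.86, adjusted p = 0.0512) and without WT replicate 2 (0.81, adjusted p = 0.0618).

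Cxcl1, which draws neutrophils through CXCR2, was at 3.17, 3.81, 1.41 and 2.73 CPM in TG-labelled libraries, against 1.01, 0.643, 2.03 and 1.03 CPM in WT-labelled libraries. The groups overlapped, since TG-labelled replicate 3 lay below WT-labelled replicate 3. Its log2 fold change of 1.23 (SE 0.40, adjusted p = 0.0424) passed the test narrowly. It missed it without TG replicate 1 (adjusted p = 0.09), TG replicate 2 (adjusted p = 0.141), TG replicate 4 (adjusted p = 0.0627), WT replicate 1 (adjusted p = 0.101), WT replicate 2 (adjusted p = 0.127) or WT replicate 4 (adjusted p = 0.0899), and passed it without TG replicate 3 (1.42, adjusted p = 0.0271) or WT replicate 3 (1.63, adjusted p = 0.0107). Without WT replicate 2 the log2 fold change was 1.01, the lowest of these 8 values. With limma-voom the adjusted p was 0.0691. Reads that Cxcl1 shares with its near relatives Cxcl2 and Cxcl3 could be left out of the counts or given to the wrong gene. Neither relative passed the filter.

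Cxcl10, an interferon-induced chemokine for T cells, had 18, 12, 9 and 5 counts in TG-labelled libraries, against 0, 0, 12 and 9 counts in WT-labelled libraries. WT-labelled replicates 1 and 2 held no read, while replicates 3 and 4 lay within the TG-labelled range. Its log2 fold change of 0.999 had an SE of 0.94 and a 95% interval of −1.01 to 3.01 (adjusted p = 0.522), and limma-voom gave 2.17 (SE 1.08, adjusted p = 0.184). Ccl2, which draws monocytes through CCR2, had 6, 21, 1 and 2 counts in TG-labelled libraries, against 7, 4, 0 and 0 counts in WT-labelled libraries. Most of its reads came from TG-labelled replicate 2, and it did not pass the filter. Over the CPM values an exact permutation test (two-sided, 70 arrangements, smallest possible p = 0.0286) gave p = 0.429. Il6, the cytokine that signals through gp130, had 17, 8, 6 and 1 counts in TG-labelled libraries, against 2, 9, 2 and 0 counts in WT-labelled libraries, and the same exact test gave p = 0.343. Its TG-labelled range covers all but the empty WT-labelled library. A count of 0 still allows 3 counts, which equal 0.132 to 0.183 CPM in these libraries. No difference in Ccl2, Cxcl10 or Il6 was larger than the spread between libraries, which exceeded a factor of 3 among the TG-labelled counts of each.

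Of the 3 NF-kB regulators, Nfkb2 passed the test, and Nfkbia and Tnfaip3 did not. Nfkb2, the precursor p100 and its product p52, was at 14.6, 8.59, 8.84 and 10.7 CPM in TG-labelled libraries, against 4.87, 6.66, 7.75 and 5.84 CPM in WT-labelled libraries. The groups did not overlap, with TG-labelled replicate 1 the highest. It rose by 0.76 on the log2 scale (SE 0.21, adjusted p = 0.0184), and the call was lost without TG replicate 1 (0.58, adjusted p = 0.0723) and without WT replicate 1 (0.65, adjusted p = 0.0593).

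Nfkbia, the inhibitor that NF-kB restores most directly, was at 92.1, 96.5, 87.3 and 97.1 CPM in TG-labelled libraries, against 104, 61.6, 115 and 52.4 CPM in WT-labelled libraries. All TG-labelled values lay inside the WT-labelled range, where replicates 1 and 3 were high and replicates 2 and 4 low. Its log2 fold change was 0.16 (SE 0.24, 95% interval −0.40 to 0.73, adjusted p = 0.713), and it was −0.0068 without WT replicate 4. The mRNA-decay factor Zfp36, named after its values were seen, lay between 25.7 and 34.98 CPM in TG-labelled libraries, against 23.4 and 35.3 CPM in WT-labelled replicates 1 and 3 and at 18.5 and 9.98 CPM in replicates 2 and 4. Tnfaip3, the ubiquitin-editing enzyme A20 that ends NF-kB signalling, was at 8.80, 7.17, 9.36 and 7.27 CPM in TG-labelled libraries, against 6.51, 5.28, 8.26 and 5.96 CPM in WT-labelled libraries. The groups overlapped only through WT-labelled replicate 3. Its log2 fold change of 0.33 (SE 0.19, 95% interval −0.08 to 0.74) did not pass the test (adjusted p = 0.269), and the interval still holds a 1.67-fold rise.

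Some members share exons with genes on the opposite strand, and whether counting used strand is not known from the labels, so their counts are uncertain. Nfkb2 shares 299 bases with Psd, which was at 23.7 to 34.0 CPM in TG-labelled and 30.2 to 37.5 CPM in WT-labelled libraries and was not called (log2 fold change −0.11, adjusted p = 0.625). AC114539.1, over 531 bases of Nfkb2, had a log2 fold change of −0.59 (adjusted p = 0.0379), a call that was lost without any 1 library but TG replicate 4, with adjusted p-values up to 0.101. Cxcl10 shares 133 bases with Art3, which rose by 1.04 (adjusted p = 9.51e-05). Cxcl16 shares 552 bases with Zmynd15, which was not called (0.45, adjusted p = 0.445). The antisense genes over Icam1 and Vcam1 did not exceed 0.161 CPM and 0.241 CPM in any library.

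Levels of different genes were compared per kilobase of merged exon, as CPM per kilobase. Nfkbia was highest of the 10, at 57.9 ± 2.83 in TG-labelled and 51.7 ± 19.1 in WT-labelled libraries (SD, n = 4 each). In TG-labelled libraries Cxcl16 (2.90 ± 0.612), Icam1 (2.38 ± 0.494) and Nfkb2 (2.33 ± 0.605) followed and did not differ beyond their spread, then Vcam1 (1.81 ± 0.265), Cxcl1 (1.48 ± 0.542) and Tnfaip3 (1.13 ± 0.152). In WT-labelled libraries Cxcl16 (1.55 ± 0.506) and Nfkb2 (1.37 ± 0.267) followed Nfkbia, and Tnfaip3 (0.900 ± 0.176) came before Cxcl1 (0.629 ± 0.317), Vcam1 (0.601 ± 0.170) and Icam1 (0.564 ± 0.259). The last 3 of these lay within their spread of each other. Ccl2, Cxcl10 and Il6 were lowest in both groups, with means between 0.163 and 0.310 in TG-labelled and between 0.0620 and 0.122 in WT-labelled libraries. Icam1 thus stood above Tnfaip3 in the means of TG-labelled libraries and below it in those of WT-labelled libraries.

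Markers of vessels, stroma, macrophages and ducts were also higher in TG-labelled libraries. Of all tested genes, 12.1% were called higher and 8.06% lower. All 9 beta cell markers fell, with Ins2, which defines the tissue, between 30527 and 37543 CPM in TG-labelled and between 60659 and 82204 CPM in WT-labelled libraries. Of these 9, 8 were called lower without TG replicate 1, TG replicate 3 or TG replicate 4, and 9 without any other single library. The summed level of 11 endothelial markers was 1292 to 1324 CPM in TG-labelled and 530.2 to 931 CPM in WT-labelled libraries, and all 11 rose. The summed level of 11 stromal and mural markers was 3370.2 to 6500.0 CPM against 850.3 to 2815 CPM, with 7 of 11 higher. The summed level of 13 macrophage markers was 198 to 484 CPM against 115 to 187 CPM, with 7 of 13 higher, and was highest in TG-labelled replicates 2 and 3. Lymphocyte markers were sparse, with 4 of 7 tested higher and a summed level of 5.00 to 11.04 CPM against 2.68 to 6.60 CPM. The summed level of 9 peritoneal macrophage markers was 49.7 to 91.4 CPM against 26.5 to 36.7 CPM, with 6 of 9 higher. The summed level of 6 ductal markers was 753 to 1022 CPM against 369.8 to 425 CPM, with 4 of 6 higher and no overlap. Neutrophil markers, with 1 of 3 tested higher, summed to 3.86 to 7.78 CPM against 1.06 to 2.12 CPM, also without overlap. Without single libraries the number called higher ran from 8 to 11 for endothelial, 3 to 11 for stromal and mural, 4 to 6 for macrophage, 3 to 6 for peritoneal macrophage, 1 to 4 for lymphocyte, 1 to 4 for ductal and 0 to 2 for neutrophil markers. Stromal and mural markers were fewest without WT replicate 1, and ductal markers without WT replicate 1 or 2. The part of ductal and neutrophil cells in the members' values was not tested. The summed level of 8 acinar markers overlapped between the groups, at 6147 to 38572 CPM against 1210.3 to 11725 CPM. None of the markers of these lists was at 0 in every library. WT-labelled replicate 3 had the highest endothelial, stromal and macrophage sums of its group, and the highest Icam1, Vcam1, Cxcl1, Nfkbia, Tnfaip3 and Nfkb2.

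Set against the endothelial sum of the same library, the members went 3 ways. Icam1 was 0.955%, 0.588%, 0.920% and 0.709% of the endothelial sum in TG-labelled libraries, against 0.327%, 0.281%, 0.441% and 0.413% in WT-labelled libraries, with no overlap. Its mean share was thus 2.17 times that of the WT-labelled libraries. Nfkbia was 7.12%, 7.29%, 6.74% and 7.34% in TG-labelled libraries, against 17.2%, 11.1%, 12.3% and 9.89% in WT-labelled libraries, again with no overlap and in the opposite direction. Tnfaip3 was likewise lower, at 0.542% to 0.723% in TG-labelled and 0.887% to 1.125% in WT-labelled libraries. Vcam1, Cxcl1, Cxcl10, Cxcl16 and Nfkb2 overlapped between the groups on this scale. Against the stromal and mural sum, Icam1 overlapped too (0.190% to 0.278% in TG-labelled, 0.146% to 0.239% in WT-labelled libraries), and Nfkbia (1.42% to 2.88% against 4.08% to 7.81%) and Tnfaip3 (0.135% to 0.216% against 0.293% to 0.650%) stayed below the WT-labelled range. Against the macrophage sum, Icam1 overlapped as well, at 1.61% to 5.12% in TG-labelled and 1.21% to 2.20% in WT-labelled libraries. Nfkbia overlapped on that scale too (19.9% to 49.0% against 39.5% to 63.4%), and Tnfaip3 did not (1.48% to 3.67% against 3.98% to 4.58%). Taken alone, a share of this kind shows unequal change and not which side moved. Mean CPM of Nfkbia was 93.2 in TG-labelled and 83.2 in WT-labelled libraries, and that of Tnfaip3 was 8.15 and 6.50. Neither gene was called. The endothelial sum was 1292 to 1324 CPM against 530.2 to 931 CPM. The stromal and mural sum was 3370.2 to 6500.0 CPM against 850.3 to 2815 CPM. On both scales the lower shares thus went with higher sums, and not with lower mean CPM of Nfkbia or Tnfaip3.

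**Figure D2:**
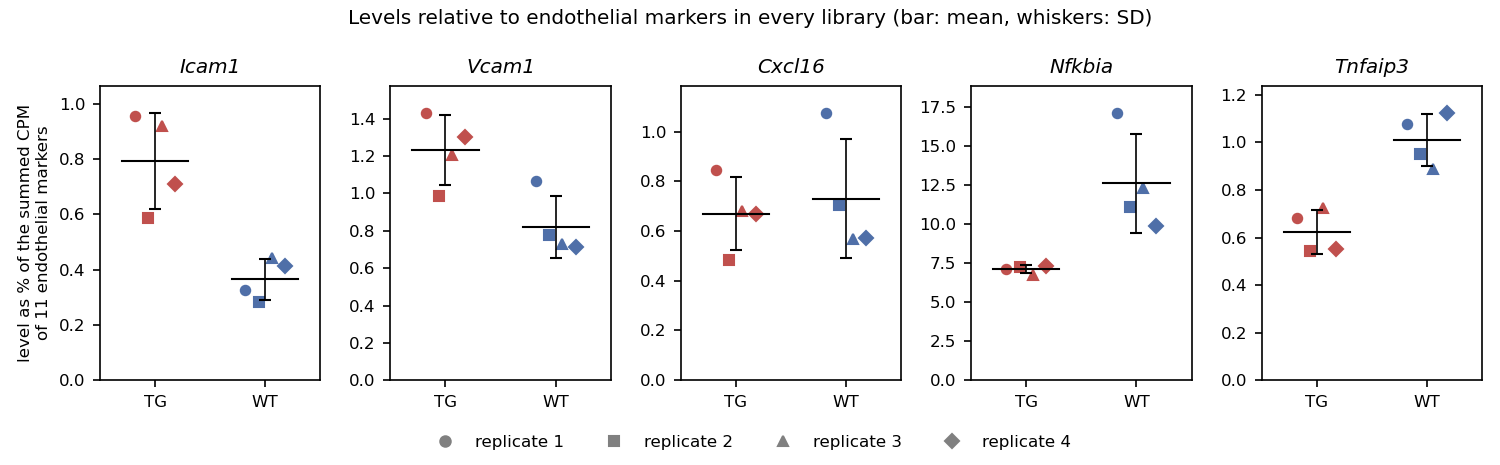
Level of 5 members as a percentage of the summed CPM of 11 endothelial markers in the same library (vertical axes start at 0), for TG (left) and WT (right), with a symbol per replicate, a line at the mean and whiskers for the SD (n = 4). Icam1 lies above the WT range in all 4 TG libraries, Nfkbia and Tnfaip3 lie below it, and Vcam1 and Cxcl16 overlap.

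With the mean log2 level of the endothelial and stromal markers as a covariate, edgeR called none of the 8 tested members. The 1 with an unadjusted p under 0.05 was Nfkbia, whose value was negative. Icam1 then stood at 0.71 (SE 0.44, adjusted p = 0.611) and Vcam1 at 0.77 (SE 0.38, adjusted p = 0.483). Cxcl1 was at 0.055 (SE 0.76, adjusted p = 0.989), Cxcl16 at 0.14 (SE 0.51, adjusted p = 0.963) and Nfkb2 at 0.18 (SE 0.43, adjusted p = 0.931). The values of Nfkbia and Tnfaip3 turned negative, at −0.76 (SE 0.30, adjusted p = 0.32) and −0.35 (SE 0.36, adjusted p = 0.819). With the macrophage markers as the covariate again none of the 8 was called and 2 had an unadjusted p under 0.05, with Icam1 at 1.24 (SE 0.46, adjusted p = 0.255), Vcam1 at 1.19 (SE 0.37, adjusted p = 0.151) and Nfkb2 at 0.78 (SE 0.41, adjusted p = 0.463). The standard errors of all 8 members were larger with either covariate than with none. The number of genes called fell to 361 with the endothelial and stromal covariate and to 345 with the macrophage covariate, against 4129 with no covariate. A larger share of these cells and a change within cells cannot be told apart here.

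**Figure D3:**
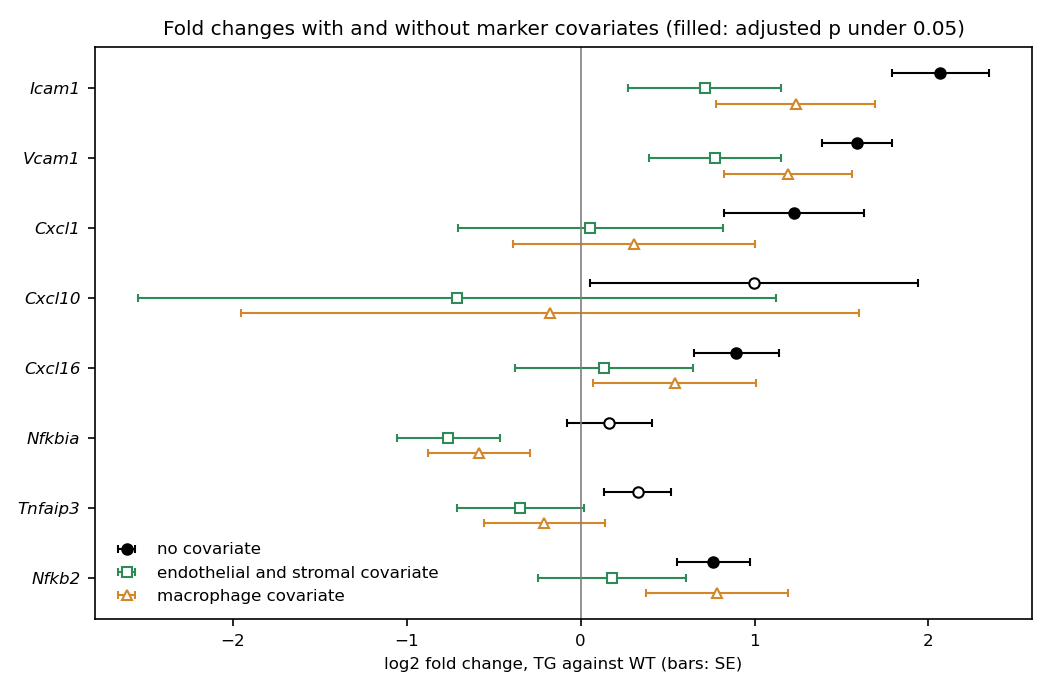
Log2 fold change of TG against WT (horizontal axis, bars are SE) for the 8 tested members with no covariate (circles), with the endothelial and stromal markers as a covariate (squares) and with the macrophage markers as a covariate (triangles). Filled symbols passed an adjusted p under 0.05, which held for 5 members with no covariate. The log2 fold changes of these 5 stayed above 0 in all 3 fits.

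Of 15 further genes of NF-kB subunits, inhibitors and kinases, Nfkb2 and Nfkbia not among them, 1 was called, where 20.1% of all tested genes were. It was the subunit gene Nfkb1, at 109.6 ± 3.67 CPM in TG-labelled and 133 ± 10.5 CPM in WT-labelled libraries (log2 fold change −0.28, SE 0.082, adjusted p = 0.0268). The median of the 15 was 0.04, and DESeq2 called 3 of them (Chuk, Nfkb1 and Nfkbiz). Nfkb1 missed the test without TG replicate 1 (−0.25, adjusted p = 0.0675), TG replicate 2 (−0.27, adjusted p = 0.059), WT replicate 2 (−0.28, adjusted p = 0.0689) or WT replicate 3 (−0.23, adjusted p = 0.0731). Of 13 further feedback and survival targets, Birc3, an inhibitor of cell death, rose by 0.47 (SE 0.12, adjusted p = 0.0123) and Cyld, a deubiquitinase that restrains NF-kB, fell by 0.31 on the log2 scale (adjusted p = 0.0257), with a median of 0.12. Birc3 missed the test without TG replicate 3 (0.40, adjusted p = 0.06) or WT replicate 2 (0.41, adjusted p = 0.0544). Cyld missed it without TG replicate 1, TG replicate 2, TG replicate 3, WT replicate 1 or WT replicate 2, with log2 fold changes of −0.33 to −0.25 and adjusted p-values of 0.0535 to 0.0882. The calls of Nfkb1, Birc3 and Cyld were all lost with the endothelial and stromal covariate.

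Receptors upstream of NF-kB moved in both directions. Of all tested genes, 12.1% were called higher and 8.06% lower. The related lists were chosen with earlier results of these data known, so their counts do not test for an excess. Of 16 receptors and adaptors, 5 were higher and 2 lower in TG-labelled libraries (median 0.18), and without TG replicate 3 the count was 3 higher and 2 lower. Il1r1, the signalling receptor of interleukin 1 and abundant in beta cells, was at 368 ± 6.62 CPM in TG-labelled and 740.2 ± 63.8 CPM in WT-labelled libraries (log2 fold change −1.005, SE 0.085, adjusted p = 1.29e-06). Tlr4, the receptor for bacterial lipopolysaccharide, was at 18.3 ± 4.47 CPM in TG-labelled and 4.33 ± 1.05 CPM in WT-labelled libraries (2.07, SE 0.22, adjusted p = 1.16e-05). Tnfrsf1a, the main receptor of tumour necrosis factor, rose by 1.13 (SE 0.16, adjusted p = 0.000201). With the endothelial and stromal covariate Il1r1 alone of the 16 was called. The TG-labelled mean of Il1r1 was 0.498 of the WT-labelled mean, and that of the summed 9 beta cell markers was 0.481. No fit used beta cell markers as a covariate, so the part of beta cells in the fall of Il1r1 was not tested. Of the cytokines upstream, 4 of 8 were tested, and Il1b rose by 1.01 (SE 0.28, adjusted p = 0.0173), at 4.31 ± 1.47 CPM in TG-labelled and 2.13 ± 0.190 CPM in WT-labelled libraries. Il1b missed the test without TG replicate 1 (0.77, adjusted p = 0.0789) or WT replicate 2 (0.98, adjusted p = 0.0503). Tnf did not pass the filter.

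Of 20 other chemokines, 11 were tested, 4 were higher and 1 was lower in TG-labelled libraries (median 0.36). Beside these counts, 12.1% of all tested genes were called higher and 8.06% lower. Without TG replicate 1, TG replicate 3, WT replicate 1 or WT replicate 4 the count of these chemokines was 2 higher and 0 lower. Ccl11, which draws eosinophils, was at 12.0 ± 2.49 CPM in TG-labelled and 2.41 ± 0.589 CPM in WT-labelled libraries (log2 fold change 2.31, SE 0.23, adjusted p = 5.59e-06). Cxcl12, a stromal chemokine bound by CXCR4, rose by 0.94 (adjusted p = 0.0033), and Cxcl14 by 1.60 (adjusted p = 0.028). In those 4 refits Cxcl14 missed the test, at 1.43 to 1.63 (adjusted p between 0.0626 and 0.0855). Of 17 receptors, integrins and sheddases that pair with these ligands, 16 were tested, 9 were higher and 1 was lower (median 0.94). The count was 5 higher and 0 lower without WT replicate 1, and 6 higher and 0 lower without TG replicate 3 or WT replicate 2. Ccr2, the receptor of Ccl2 on monocytes, was at 7.92 ± 2.22 CPM in TG-labelled and 2.32 ± 0.409 CPM in WT-labelled libraries (1.77, SE 0.25, adjusted p = 0.000192), Itgb1 rose by 0.40 (adjusted p = 0.00659) and the decoy receptor Ackr1 by 2.77 (adjusted p = 0.0098).

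The partners of the members were then read from this list, chosen after their values were seen. Itgb2, the beta-2 integrin chain that binds ICAM1, was at 11.2, 23.1, 23.8 and 9.32 CPM in TG-labelled libraries, against 3.32, 2.85, 6.83 and 2.25 CPM in WT-labelled libraries (2.14, adjusted p = 0.0102). TG-labelled replicates 2 and 3 were highest, as they were for the macrophage sum, and replicate 2 was the lowest TG-labelled library for Icam1. Itga4, the chain that binds VCAM1, had a log2 fold change of −0.36 (adjusted p = 0.027), and its call held without TG replicate 4 or WT replicate 4 and was lost without each of the other 6 libraries (−0.39 to −0.33, adjusted p between 0.0513 and 0.0783). Adam10, which cuts CXCL16 from the cell surface, had a log2 fold change of 0.33 (adjusted p = 0.0412). That call was lost without TG replicate 1, TG replicate 3, TG replicate 4, WT replicate 1 or WT replicate 2 (0.24 to 0.32, adjusted p between 0.0838 and 0.163), and with upper-quartile scaling or no filter. Cxcr6, the receptor of CXCL16, did not pass the test (1.27, SE 0.63, adjusted p = 0.186).

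Among all tested genes, 12.1% were called higher and 8.06% lower. Of 10 other adhesion molecules, 9 were tested and 7 were higher (median 0.83). Esam (0.92, adjusted p = 0.000381), Jam2 (0.75, adjusted p = 0.00155) and Icam2 (1.01, adjusted p = 0.00227), all known from endothelium, had the lowest adjusted p-values. Of 12 genes of IL-6 family signalling, 4 were higher and 1 lower (median 0.37). Lifr, the leukaemia inhibitory factor receptor, was at 152 ± 12.3 CPM in TG-labelled and 230.2 ± 13.3 CPM in WT-labelled libraries (−0.60, SE 0.086, adjusted p = 0.000195), while the oncostatin M receptor Osmr rose by 1.16 (adjusted p = 0.000752) and their shared partner Il6st by 0.64 (adjusted p = 0.00696). Of 13 genes of interferon signalling, 7 were higher (median 0.47), with 4 without TG replicate 3 and 5 without TG replicate 1, TG replicate 2 or WT replicate 2. Among the 7 were Gbp2 (1.49, adjusted p = 7.82e-05), Ifngr1 (0.67, adjusted p = 0.00219) and Isg15 (1.31, adjusted p = 0.00718). With the endothelial and stromal covariate 2 genes of all 9 lists were called, Il1r1 and Lifr, both lower. With the macrophage covariate 4 were called, Il1r1, Lifr, Tlr4 and Ccl11. Beta cell markers were not used as a covariate.

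**Figure D4:**
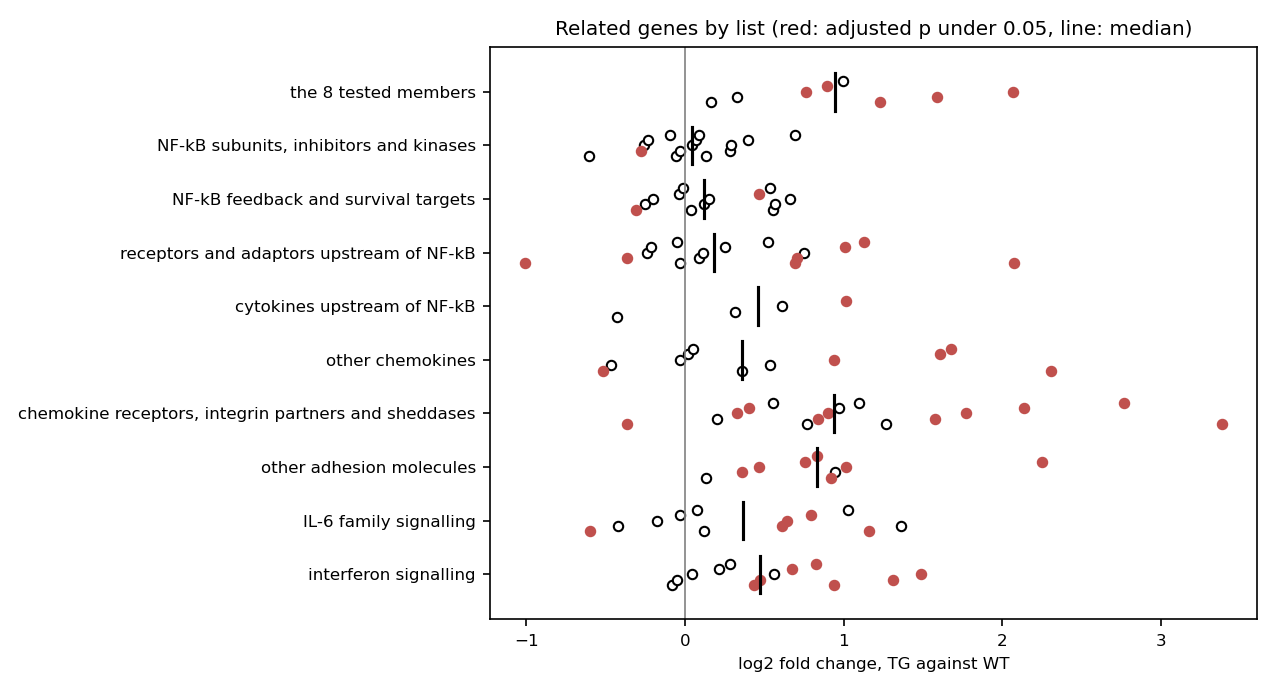
Log2 fold change of TG against WT (horizontal axis) for the tested genes of the 9 related lists and, in the top row, the 8 tested members, with a line at each median. Red points passed an adjusted p under 0.05. Adhesion molecules and chemokine receptors with integrins lie mostly to the right of 0 (medians 0.83 and 0.94), and NF-kB subunits, inhibitors and kinases lie around 0 (median 0.04).

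The genes most like each member were found by the root mean square difference of log2 CPM over the 8 libraries, each gene centred on its own mean, among 15603 tested genes with a usable symbol. Icam1 lay closest to Ctsk, a collagen-degrading protease, and Lamb3, a laminin chain (0.15 each). Vcam1 lay closest to the growth factor Ptn (0.11) and to Abca8a (0.12), Cxcl16 to Cyp2j9 (0.094) and Rbms3 (0.11), and Cxcl1 to Chst3 (0.29) and Fam167b (0.31). Nfkbia lay closest to Errfi1, an inhibitor of growth factor receptors (0.10), and Frg2f1 (0.14), and Tnfaip3 to Qk (0.073) and Tdp1 (0.087). Nfkb2 lay closest to Aif1, 1 of the 13 macrophage markers (0.12), and Nfia (0.15), and Cxcl10 to the sparse Olfr52 (0.19) and Nlrp4c (0.28). The sum of the 13 macrophage markers was highest in TG-labelled replicates 2 and 3, where Nfkb2 was lowest of its group. WT-labelled replicate 3 was highest of its group for both. Among the members themselves, Vcam1 and Cxcl16 lay closest to each other (0.37), and so did Nfkbia and Tnfaip3 (0.28).

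The libraries held 16521087 to 22499999 counts assigned to genes. Atf4 was lower in the TG-labelled libraries, at 270.2, 277, 233 and 258 CPM against 377, 325, 349.6 and 352 CPM (−0.43, adjusted p = 0.00226). Reads of the transgene need not fall on this gene, so it does not check the labels, and each direction here is for libraries as labelled.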

How the data were processed

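Counts per Ensembl gene were deposited as 8 tables of whole numbers, 1 per library, with no scaling. The submitters' processing notes name STAR 2.7.10a, HTSeq 0.11.3 and build mm39, and the annotation and any use of strand are not given in the sources used here. Entries for reads given to no gene (25.3% to 31.5% outside genes, 3.74% to 4.36% ambiguous) were left out. Symbols came from a gene name table that matched 52081 of 55414 identifiers, and merged exon lengths and overlaps from GENCODE M21, an earlier build. Replicates differed beyond sampling noise in every pair within a group (chi-square per gene of at least 16.9), so none was the same library sequenced again. This does not show that they came from separate animals.

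Genes were filtered with filterByExpr (minimum count 10), scaled by TMM and tested by quasi-likelihood in edgeR 4.0.16 (R 4.3.3, robust, two-sided, group as the only term), with Benjamini-Hochberg adjustment over 20509 genes. Calls needed an adjusted p under 0.05. The step was tested on simulated data. CPM use all gene counts times the TMM factor. Alternatives were DESeq2 1.42.0, limma-voom (limma 3.58.1), 3 other scalings, 2 other filters, a replicate block, marker covariates (macrophage, endothelial with stromal, acinar) and each library left out. Leaving out TG replicates 2 and 3 together was chosen after seeing the data. The members and lists were chosen with earlier results of these data known. From each of 9 related lists up to 3 called genes with the lowest adjusted p were named, and for each tested member the 2 genes nearest in profile. Plots used matplotlib 3.10.9 (Python 3.11.15). Limits cover counting error only.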

Additional observations from a re-analysis of the deposited data

How the results depend on the processing

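The calls of Icam1 and Vcam1 held in 18 of 20 alternatives each and were lost with the macrophage and with the endothelial and stromal covariate, where the counts of members called were 0 and 0. With the acinar covariate 3 members were called (Icam1, Vcam1 and Cxcl16). Without single libraries the count ran from 2 to 5, with 2 without TG replicate 1 and 3 without WT replicate 1 or WT replicate 2. The count over all genes was 345 with the macrophage covariate, 361 with the endothelial and stromal covariate and 2254 without both TG replicates 2 and 3, where the number of samples is smaller and 4 members were called. Without single libraries it ran from 2864 to 4404. Values that changed sign, all of genes not called, were those of Cxcl10 (−0.17 with the macrophage and −0.71 with the endothelial and stromal covariate), Tnfaip3 (−0.21 and −0.35), and Nfkbia (−0.59 and −0.76, −0.012 with the acinar covariate and, without single libraries, −0.0068 without WT replicate 4 to 0.35 without WT replicate 3). The cause was not tested. Same-numbered libraries did not deviate together (correlations of −0.030 to 0.081 over genes). This gave no sign of a pairing by number and cannot exclude one. With the replicate block 4673 genes and 4 members were called, without Cxcl1 (1.26, adjusted p = 0.0727). No alternative scaling moved the median of all genes by over 0.039. With limma-voom Cxcl10 was at 2.17. Ccl2, Cxcl10 and Il6 rest on few reads. With no filter Ccl2 was at 1.34 (SE 1.20) and Il6 at 1.29 (SE 1.13), both with adjusted p = 0.601.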
